A study of Drosophila melanogaster with 2 samples.

Results

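The genes of the RNA polymerase subunits, the TFII general transcription factors, the TAF subunits of TFIID and the MED subunits of Mediator were examined for peaks of the transcription factor Wdn at their transcription starts. Members were the protein-coding genes whose symbols carry the Polr, Taf, TfII or MED stem, which gave 79 of 13968 protein-coding genes. They comprised 25 Mediator genes, 13 RNA polymerase II, 10 RNA polymerase III and 7 RNA polymerase I genes, 15 TAF genes and 9 TFII factor genes. These groups follow the symbol, so a subunit shared by several polymerases counts only under the polymerase in its symbol. The rule uses symbols and no measured value, but the members were chosen with earlier results of these data known.

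Chromatin immunoprecipitation with sequencing (ChIP-seq) was done on whole Drosophila melanogaster embryos aged 0 to 24 h from a strain with an insertion that expresses the zinc-finger protein Wdn (wings down) fused to eGFP. Chromatin was sonicated to a size range of 200 to 800, per the labels, and anti-GFP antibody was used for the precipitation. Biological replicates 1 and 2 made up the single group, and both carried the fusion. Cells of all embryonic tissues and ages were pooled, so occupancy in few cells and weak occupancy in many cannot be told apart, and a possible control library named by the labels was not analysed here.

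RNA polymerases I, II and III transcribe, in turn, ribosomal RNA, messenger RNA, and transfer RNA with other small RNAs. At promoters of messenger RNA genes, TFIID (the TATA-binding protein with its TAFs), TFIIA and TFIIB position polymerase II, TFIIE, TFIIF and TFIIH complete the preinitiation complex, and Mediator relays signals from sequence-specific factors to the polymerase. Most of these proteins are needed in every cell, and head-to-head gene pairs are common in the compact fly genome.

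The DNA at the summits of the 8 strongest member peaks for which sequence is given is printed here to show their runs of A and T, which other bound starts also had. Each stretch holds 101 bases centred on the summit, 5′ to 3′ on the strand of the member gene, in the RefSeq sequence of the dm6 build. Capitals mark unbroken runs of at least 6 A or T bases. The positions are chr3R:14125677-14125777 (Polr2B, plus strand), chr3R:5655007-5655107 (MED27, plus strand), chr3L:654247-654347 (MED30, minus strand), chr3L:21728734-21728834 (Polr2H, plus strand), chr3R:27253197-27253297 (TfIIA-L, plus strand), chr2L:17410448-17410548 (Polr2J, minus strand), chr3R:18188963-18189063 (MED17, plus strand), chr3L:21031496-21031596 (Polr3E, plus strand).
Polr2B: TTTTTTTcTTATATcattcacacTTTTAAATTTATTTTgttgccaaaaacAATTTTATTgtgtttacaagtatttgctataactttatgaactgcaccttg
MED27: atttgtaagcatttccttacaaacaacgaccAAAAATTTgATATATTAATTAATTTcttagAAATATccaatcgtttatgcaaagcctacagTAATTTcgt
MED30: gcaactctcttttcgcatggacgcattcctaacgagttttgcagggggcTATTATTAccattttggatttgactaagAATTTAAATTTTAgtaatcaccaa
Polr2H: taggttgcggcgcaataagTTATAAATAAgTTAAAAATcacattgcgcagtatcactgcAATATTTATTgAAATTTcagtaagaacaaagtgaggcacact
TfIIA-L: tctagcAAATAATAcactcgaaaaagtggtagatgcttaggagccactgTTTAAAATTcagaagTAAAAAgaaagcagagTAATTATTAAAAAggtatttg
Polr2J: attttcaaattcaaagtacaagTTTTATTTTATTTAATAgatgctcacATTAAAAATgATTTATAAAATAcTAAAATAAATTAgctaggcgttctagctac
MED17: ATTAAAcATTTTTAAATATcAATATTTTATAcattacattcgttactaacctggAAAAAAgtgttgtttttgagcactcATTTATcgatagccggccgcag
Polr3E: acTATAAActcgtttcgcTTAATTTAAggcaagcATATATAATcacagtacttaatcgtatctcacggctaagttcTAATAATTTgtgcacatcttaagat

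A gene was called bound when a summit of the thresholded list made from both replicates (the main list, 3254 peaks) lay within 500 bp of an annotated transcript start, with negative positions upstream of it. The lists came from the irreproducible discovery rate (IDR), which scores how well the rank of a peak repeats between data sets, and every listed peak had a global IDR of at most 0.01. The ranked list behind the main list held 132052 candidate peaks. Another list, named conservative, held 2722 peaks under the same IDR limit, and the lists of replicates 1 and 2 alone held 1996 and 1796. Signal values are those of the authors' peak caller. Their reference was not stated, so they rank peaks within a list only, and the number of reads behind them is unknown.

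Of the 79 members, 16 were bound (20.3%, 95% exact binomial interval 12% to 30.8%), beside 14.9% of all protein-coding genes. In this list the background share lay inside the members' interval. Of the 67 members with any candidate in the window, the same 16 were bound, beside 18.3% of protein-coding genes with a candidate. In the conservative list 14 members were bound, beside 13.1% of protein-coding genes. In the list of replicate 1 alone 14 members were bound, beside 9.61%, and in that of replicate 2 alone 14 members, beside 9.84%. The interval for 14 of 79 (17.7%) was 10.04% to 27.9%, so the background of the conservative list lay inside it and those of the single replicates just below it. The members' share thus lay above the background share in each of the 4 lists. This order depended on counting every start within 500 bp. When each peak was given only to its nearest annotated start, 7 members were bound (8.86%), beside 11.0% of protein-coding genes. Members were chosen with earlier results of these data known, so no enrichment can be read from these shares.

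Mediator had the highest share, 7 of 25 genes (28.0%, interval 12.1% to 49.4%), and 6 in each of the conservative list and the replicates' own lists. RNA polymerase II had 3 of 13 (23.1%, 5.04% to 53.8%), the same count in every list. RNA polymerase III had 2 of 10 (20.0%, 2.52% to 55.6%), and 1 in each other list. The TFII factors had 2 of 9 (22.2%, 2.81% to 60.0%), 1 in the conservative list and the list of replicate 1, and 2 in that of replicate 2. TAFs had 2 of 15 (13.3%, 1.66% to 40.5%) and 3 in the conservative list. RNA polymerase I had 0 of 7, which allows a share of up to 41.0%, and 1 in the list of replicate 1. Shared subunits with a Polr2 symbol, such as the bound Polr2H, are not in this count. The intervals of the 6 groups overlapped, so no order among the complexes could be made out. These intervals cover counting error only.

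**Figure D1:**
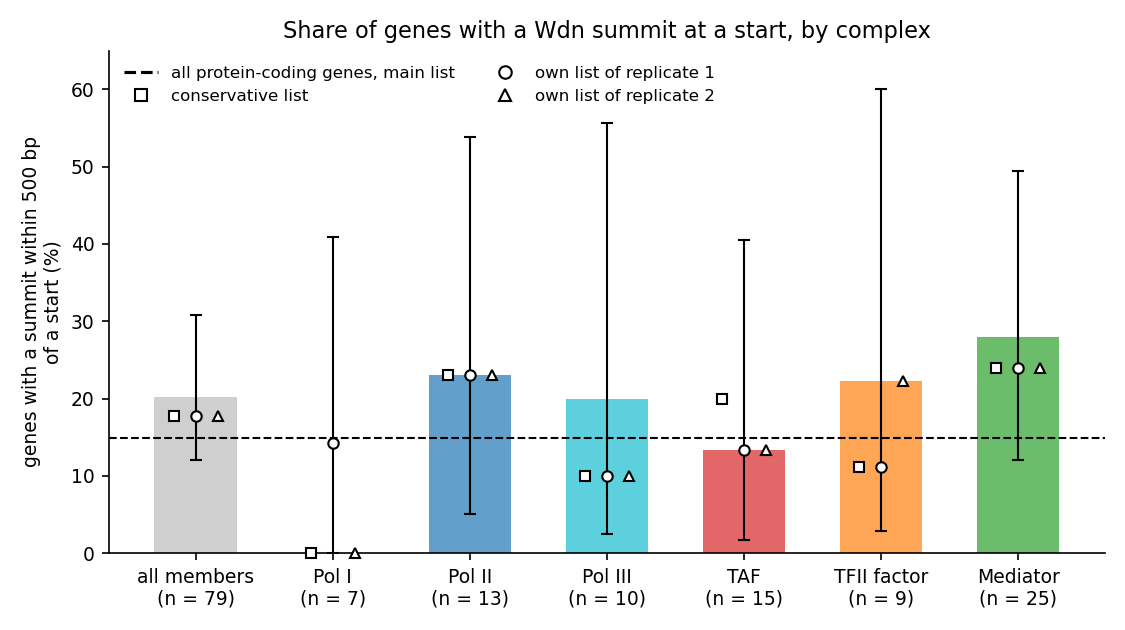
Share of genes with a Wdn summit within 500 bp of a start, in percent, for all members and for each complex. Bars are the main list with 95% exact binomial intervals, open symbols are the conservative list and the own lists of replicates 1 and 2, and the dashed line is the share of all protein-coding genes in the main list (14.9%); every interval spans that line.

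Among RNA polymerase II genes the bound members were Polr2B, Polr2H and Polr2J. Polr2B, which with the largest subunit Polr2A forms the catalytic cleft, had the strongest peak of all members. Its signal was 114 in replicate 1, 119 in replicate 2 and 240 in the main list, where it ranked 222nd. The summit (3R, 14125727) lay 64 bp upstream. Polr2H encodes a small subunit shared by the nuclear polymerases. It had 68.6 and 103 in replicates 1 and 2 and 171 in the main list, 148 bp upstream (3L, 21728784). Polr2J is the fly counterpart of the human subunit that pairs with POLR2C during assembly. It had 57.3 and 83.5 in the replicates and 140 in the main list, 92 bp upstream (2L, 17410498). All 3 genes were in both replicates' own lists. Polr2A itself was not bound. Its best candidate, at -84 bp, reached a signal of 26.3 with an IDR of 0.222.

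Bound Mediator genes included members of the head module, which contacts the polymerase, and of the middle module, which links head and tail. In the head, MED8 and MED17 were bound among 8 members, and in the middle MED4, MED7 and MED31 among 8. The tail module, which receives activators, had 0 of 5, and MED14, the scaffold that joins the modules, had no listed peak. MED27 and MED30, subunits given no module here, were bound among 3 such genes. The share over all protein-coding genes was 14.9%. With 1 to 8 genes a module, no order among the modules could be made out.

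MED27 had the strongest Mediator peak, with 103 and 112 in replicates 1 and 2 and 221 in the main list, 82 bp upstream (3R, 5655057). MED30, a subunit of animal Mediator, had 91.7 and 94.5 in the replicates and 179 in the main list, 208 bp upstream (3L, 654297). MED17, a central head subunit, had 55.8 and 76.0 and a main-list signal of 134, 59 bp upstream (3R, 18189013). These 3 genes were listed in both replicates. The middle-module genes MED7, MED4 and MED31 followed closely on each other. MED7 had 38.2 and 60.7 in the replicates and 99.4 in the main list, 50 bp upstream (3R, 10761082), the summit nearest to a member's start. MED4 had 41.0 and 60.6 and a main-list signal of 99.3, 170 bp upstream (3L, 7250697). MED31 had 39.7 and 58.1 and a main-list signal of 97.7, 169 bp upstream (3R, 4641794). Replicate 2 had the higher value at all 3. In replicate 1 MED7 was ranked with an IDR of 0.0106, just above the threshold, and was not in that replicate's list. MED8, a head subunit, was among the weakest bound members. Its signal was 16.8 in replicate 1, 36.3 in replicate 2 and 44.2 in the main list, 324 bp upstream (2R, 20327130). Replicate 2 ranked it with an IDR of 0.147 and did not list it.

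Of the TFII factors, TfIIA-L and TfIIB were bound. TfIIA-L encodes the precursor of the large TFIIA subunits, which stabilise the TATA-binding protein on DNA. It had 77.3 and 71.8 in replicates 1 and 2 and 152 in the main list. The summit (3R, 27253247) lay 183 bp upstream of an internal start at 27253430, within a gene that spans 27251112 to 27256463. TfIIB bridges the TATA-binding protein and the polymerase. It had 20.3 and 47.1 in the replicates and 68.0 in the main list, 324 bp upstream (2L, 10431014). The candidate of replicate 1 that overlapped this peak, at -375 bp, had an IDR of 0.314 and was not in that replicate's list.

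TfIIA-S, the gene of the small TFIIA subunit, was not in any thresholded list but ranked among the strong members. Its candidate had a signal of 55.0 in replicate 1, 65.4 in replicate 2 and 119 in the main ranked list, at -74 bp (3R, 23891134). The IDR was 8.74e-05 in the main ranking, 0.000153 in the conservative one, and 0.000687 and 9.73e-05 in the replicates, each below the threshold. It was 1 of 121 candidates that passed the threshold in the main ranking without being listed. The deposited text names 1 further input of the thresholded lists, and its part in this case was not tested. With such candidates added, 17 members were bound (21.5%), beside 15.3% of protein-coding genes. The remaining 6 TFII factor genes were TfIIA-S-2, TfIIEalpha and TfIIEbeta, TfIIFalpha and TfIIFbeta, and the elongation factor TfIIS. None of these 6 had a candidate with an IDR below 0.1.

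Among TAFs, Taf5 and Taf2 were bound. Taf5, a WD-repeat subunit of the TFIID core, had 72.3 and 72.5 in replicates 1 and 2 and 141 in the main list, 133 bp upstream (2R, 10879806). Taf2, a subunit that contacts DNA at the initiator, had 33.3 and 34.0 in the replicates and 71.7 in the main list, 106 bp upstream (3L, 9888789), with a further listed summit in the window. Both genes were in both replicates' own lists. Taf4, a histone-fold subunit of the core, was in the conservative list only. It had a signal of 71.8 at -122 bp, with an IDR of 0.00559 in the conservative ranking, while its lowest IDR in the main ranking was 0.421. The replicates had 25.1 and 39.8 there. Taf10 and Taf10b, paralogous histone-fold TAFs, start 45 bp apart in opposite directions and shared a single candidate, whose signal was 27.0 and whose IDR was 0.268.

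Of the 2 bound RNA polymerase III genes, 1 is described here. Polr3E encodes a subunit specific to polymerase III and had 46.0 and 53.2 in replicates 1 and 2 and 101 in the main list, 279 bp upstream (3L, 21031546). Among the 7 RNA polymerase I genes, Polr1D, a subunit shared with polymerase III, was in the list of replicate 1 only, with 28.4 at 95 bp downstream and an IDR of 0.00918. In replicate 2 the best candidate at Polr1D, at -274 bp, had 19.3 and an IDR of 0.811.

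**Figure D2:**
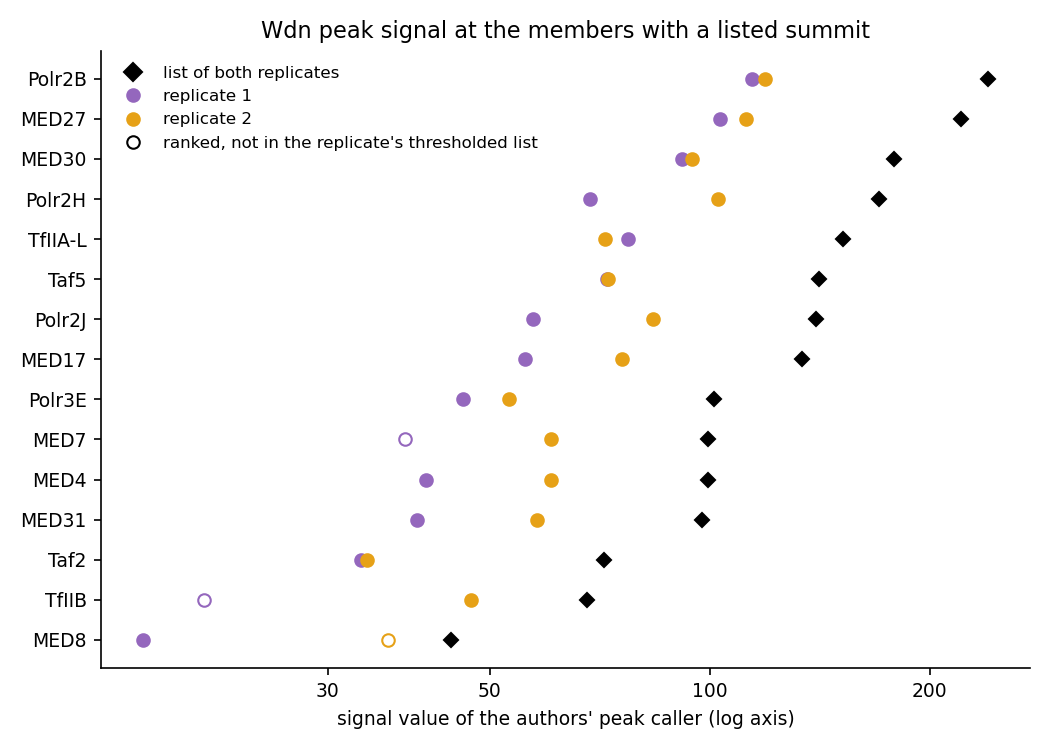
Peak caller signal value (log axis) at 15 of the 16 bound members, ordered by the main list. Diamonds are the main list, filled circles are replicates 1 and 2 where the peak was in that replicate's own list, and open circles are ranked but unlisted candidates that overlap the main-list peak; the main-list signals run from 44.2 at MED8 to 240 at Polr2B.

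The bound members had a median main-list signal of 118 (quartiles 91.2 and 157), beside 87.6 (64.0 and 140) for all bound protein-coding genes. Of the 16 peaks, 4 were among the strongest 500 and 8 among the strongest 1000 of the 3254 in the list. An IDR of at most 0.001 was found at 12 members, beside 1281 of the 2087 bound protein-coding genes. The median rank of the members' peaks was 847.5, and MED8 lay near the end of the list. How many peaks of all bound protein-coding genes were among the strongest 500 or 1000 was not counted. Both replicates' own lists held 12 of the 16 members (75.0%), beside 996 of 2087 bound protein-coding genes (47.7%). Over these 12 members the replicate signals ranked alike, with a Spearman rho of 0.846, given as a description since the members share both libraries. The value was higher in replicate 2 at 11 of the 12, TfIIA-L being the exception. Values of separately made lists are on scales of their own, so this is no difference in occupancy. The summits of the replicates lay a median of 23.5 bp and at most 72 bp apart at these members.

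The remaining 63 members had no main-list summit at a start. Of these, 12 had no candidate in the main ranking, among them MED15, MED21, Taf3 and TfIIEalpha, and 3 of the 12 had one in the ranking of a replicate. A candidate was present at 51, with a median best signal of 27.0 (7.56 to 119), and at 46 of them the lowest IDR exceeded 0.1. After TfIIA-S, the lowest IDR belonged to MED23, a tail subunit, at 0.0132 with a signal of 26.1, 243 bp downstream. MED16, also of the tail, followed with an IDR of 0.0299 and a signal of 40.1, at -28 bp. In the conservative ranking the IDR was 0.306 at MED23 and 0.0200 at MED16. It was 0.114 and 0.598 in replicates 1 and 2 at MED23, and 0.0450 and 0.557 at MED16, all above the threshold. At Polr2C it was 0.0850, at Polr2M 0.0932 and at Taf13 0.112, all with candidates downstream of the start. No unbound member had a main-list summit elsewhere in its gene, and the nearest main-list summit lay a median of 7067 bp from a start. MED19 was the 1 unbound member with a listed summit within 1000 bp (at -574 bp, signal 47.7).

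**Figure D3:**
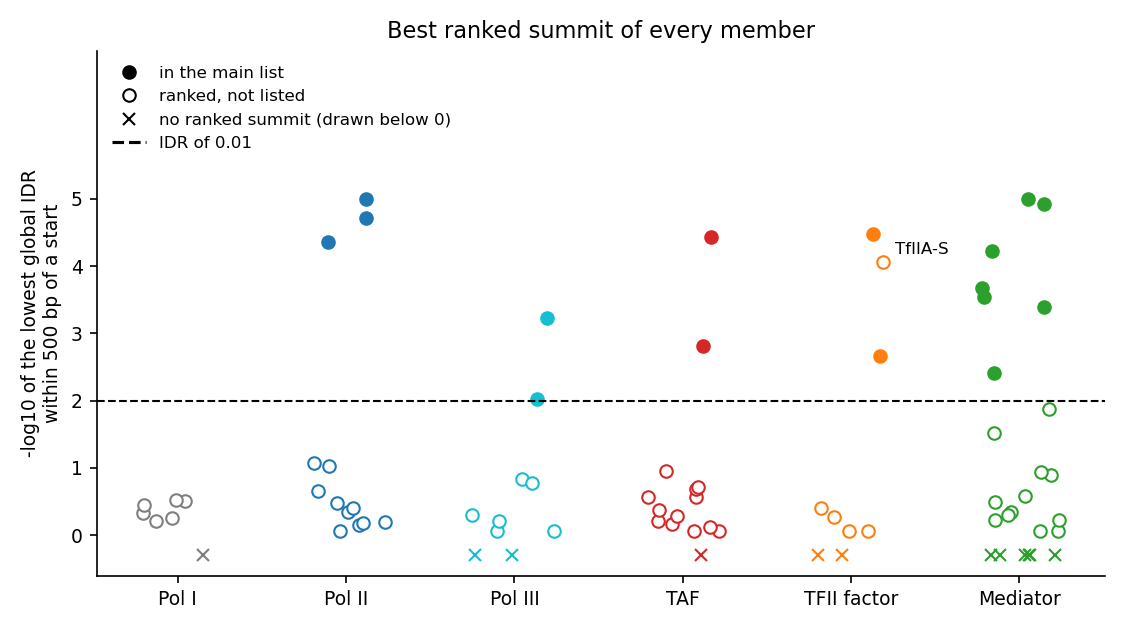
Lowest global IDR of any candidate within 500 bp of a start, as −log10, for each of the 79 members by complex. Filled points are in the main list, open points are ranked only, crosses mark the 12 members with no candidate, and the dashed line is an IDR of 0.01; TfIIA-S is the single open point above the line.

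All 16 summits lay upstream of the member's start, beside 1785 of 2087 (85.5%) for bound protein-coding genes. The median position was -158.5 bp (-324 to -50), beside -124 bp. Each of the 16 summits also had the start of a gene on the opposite strand within 500 bp, so that every bound member had a start in a head-to-head pair. At TfIIA-L this was an internal start, and its partner pll starts inside the TfIIA-L gene. Among all bound protein-coding genes, 1225 (58.7%) had a start of any other gene within that distance. The starts of the 16 pairs lay 79 to 465 bp apart, with a median of 276 bp. In 12 pairs the summit fell between the starts, and in 4 it lay past the partner's start, inside the partner gene.

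The partners were 15 protein-coding genes and 1 antisense RNA gene. Polr2B starts 243 bp from 140up, with the summit 64 bp from Polr2B and 179 bp from 140up. MED27 starts 278 bp from elm, and the summit was nearer to MED27, at 82 against 196 bp. MED7 faces Cap-H2, a condensin II subunit, over 278 bp, and Taf5 faces Pex6, a peroxisome assembly ATPase, over 301 bp. In these pairs and in Polr2J with CG15141 and MED17 with CG12321 the member's start was the nearest one, which made 6 of 16. At the other 10 members the strongest summit was nearer to another start. Polr3E, 1 of these, had a further listed summit at -77 bp (signal 61.8) that was nearest to its own start, which makes the 7 members of the nearest-start count. The TfIIA-L summit lay 65 bp from pll, the kinase of the Toll pathway, and 183 bp from the internal TfIIA-L start. At the other TfIIA-L start the diverging neighbour was TTLL6B, 105 bp away, with no listed summit in the window. MED30 faces Rev1, a translesion DNA polymerase, whose start was 66 bp from the summit, against 208 bp for MED30. TfIIB faces Bug22, a ciliary protein gene, at 96 against 324 bp. The summits inside the partner were those of Taf2 with the calpain protease gene CalpB, MED31 with CG9775, Polr2H with CG11247 and MED4 with the antisense RNA gene asRNA:CR43470. The start used for MED31 is also that of slx1, a nuclease subunit gene. Which gene of a pair a peak relates to cannot be told apart from its position.

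**Figure D4:**
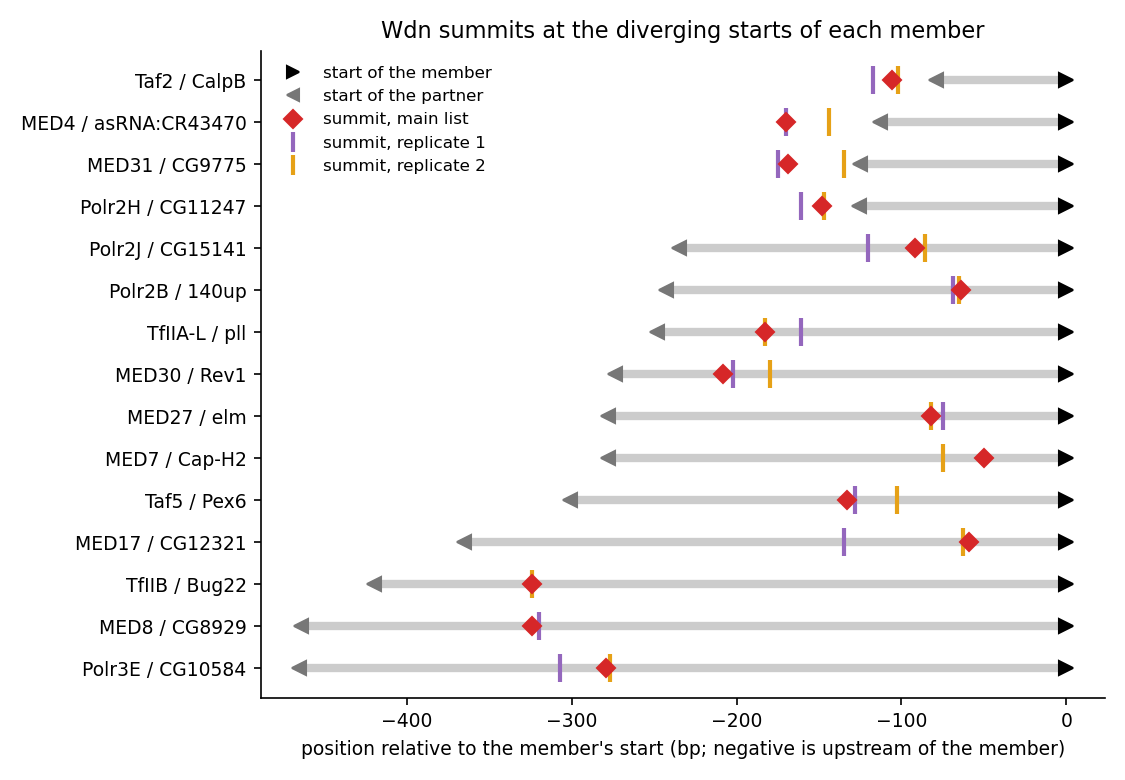
Position in bp relative to the member's start (0, negative is upstream) of the partner's start, the main-list summit and the summits in the replicates' own lists, for 15 of the 16 bound members, ordered by the distance between starts. Grey bars join the 2 starts; 11 of these 15 main-list summits lie on the bar and 4 lie past the partner's start.

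Head-to-head arrangement was common among the members whether bound or not. A diverging start on the opposite strand within 1000 bp was present at 56 of 79 members (70.9%), beside 5527 of 13968 protein-coding genes (39.6%). By complex these were 20 of 25 Mediator genes, 12 of 15 TAF genes, 8 of 13, 7 of 10 and 4 of 7 genes of polymerases II, III and I, and 5 of 9 TFII factor genes. Of the 56 members, 16 were bound (28.6%, interval 17.3% to 42.2%), beside 25.0% of protein-coding genes so arranged. Of the 23 members without a diverging start 0 were bound, which allows a share of up to 14.8%, beside 8.39% of such protein-coding genes. In the main list the background lay inside both intervals. In the lists of replicates 1 and 2 alone, 14 of the 56 members were bound in each (25.0%, interval 14.4% to 38.4%). Beside these stood 16.1% and 17.7% of protein-coding genes with a diverging start, also inside the interval. TfIIA-S has no diverging start and would make 1 of 23 if counted. Among the 40 unbound members with a diverging start the median distance between starts was 201.5 bp, beside 276 bp for the bound ones. Among protein-coding genes with a diverging start it was 305 bp for those not bound and 284 bp for those bound. The unbound members with a diverging start included MED20, whose neighbour 47 bp away is Trf, a relative of the TATA-binding protein.

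**Figure D5:**
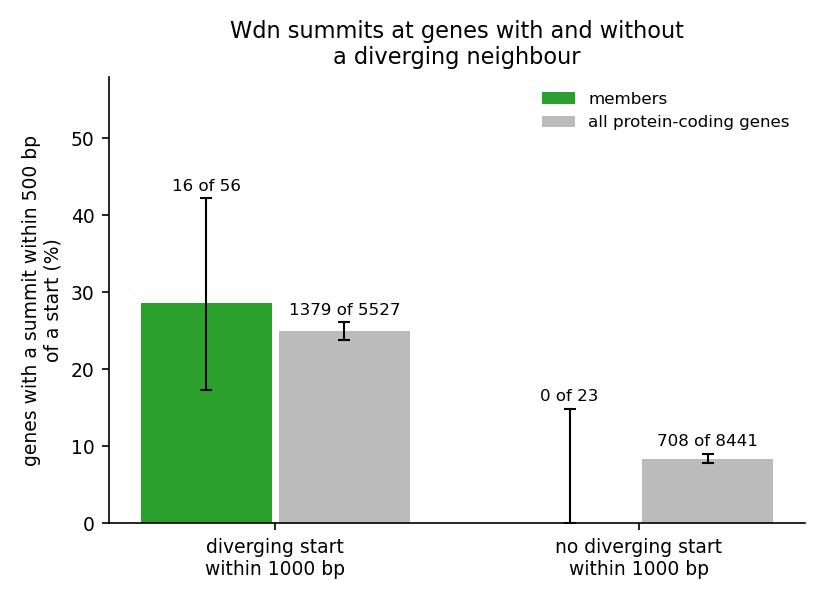
Share of genes with a main-list summit within 500 bp of a start, in percent, for genes with and without a diverging start within 1000 bp. Coloured bars are the members and grey bars all protein-coding genes, with 95% exact binomial intervals and counts; on the left the members are at 28.6% and the background at 25.0%, and the bar for members on the right is at 0 of 23.

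The sequence around the members' summits was rich in A and T. Within 50 bp of the summit the share of A and T was 69.9% ± 5.11 (SD, n = 16 peaks, 62.4% to 79.2%), beside 63.8% ± 11.0 (n = 1488) at all bound protein-coding starts and 53.0% ± 10.1 (n = 16894) at candidates near protein-coding starts that were not listed. The longest unbroken run of A and T had a median of 12.5 bases (7 to 18) at members, beside 10 at all bound starts and 6 at unlisted candidates. In the stretches printed above the longest runs were 17 bases at Polr2J, 16 at MED27 and 15 at Polr2B.

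Short words were searched on both strands in the same windows. TATAAA, the core of the TATA box, was present at 6 of 16 members (37.5%), namely MED8, MED17, Polr2H, Polr2J, Polr3E and Taf5. It was present at 20.6% of bound starts and 8.51% of unlisted candidates. The A and T share also differs between members, bound starts and unlisted candidates. The windows were centred on summits and the distance of a match from a start was not measured, so no match can be called a TATA box. TATCGATA, the DNA replication-related element, was found at MED17 only (2.82% and 1.12%), GAGAG at MED30 only (9.48% and 13.8%), and CAGCTG (4.64% and 6.14%) and GGTCACAC (1.34% and 0.983%) at none. Of 5 words of 8 bases taken from an earlier search of these peaks, TTAAAAAA was found at Taf2 and TfIIB (6.59% and 1.70%), TATATTAA at MED27 (3.83% and 0.639%) and AAAAATGT at MED17 (3.83% and 1.35%), while CACAGTGG (1.21% and 0.450%) and CACTGTGC (1.34% and 0.533%) were found at none. Because these 5 words came from the same peaks, their shares at bound starts and unlisted candidates are no independent comparison. No word searched was common to the members. Each of the 16 had a run of at least 7 A or T bases, but such runs were not particular to them. The median longest run at all bound starts was 10 bases.

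Genes of the same machinery whose names fall outside the symbol rule were read from 9 lists of 70 genes, of which 27 (38.6%) were bound, beside 14.9% of protein-coding genes. In the conservative list 24 were bound, beside 13.1% of protein-coding genes. In the lists of replicates 1 and 2 alone 15 and 16 were bound, beside 9.61% and 9.84%. With each peak given only to its nearest start 18 were bound, beside 11.0%. The lists were chosen with results of these data known, so no enrichment of the machinery can be read from these shares. The Mediator kinase module, which docks on the core complex and restrains it, had skd (93.2) and Cdk8 (54.5) bound among 4 genes, given here and below as main-list signals. TFIIH, which opens promoter DNA and phosphorylates the polymerase, had 4 of 10. These were Ssl1 (669), which shares the peak with its neighbour Chro, mrn (102), Tfb5 (61.6) and Tfb1 (47.3). Of the polymerase III initiation factors, Brf (219) and Bdp1 (165) were bound among 5, and of the polymerase I factors TAF1C-like (73.0) among 3. Each of these summits lay nearer to the start of another gene, in turn sds22, CG6565 and MESK2. The summits at skd, Ssl1 and Tfb5 also lay nearer to another gene's start. TAF1C-like was not bound in the conservative list or in that of replicate 1. Cdk8 and Tfb1 were in neither replicate's own list. The TBP family had 0 of 3, with 1 in the list of replicate 1, and the testis-specific TAF paralogues 0 of 4.

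Among 14 elongation factor genes 6 were bound, and 3 in the own list of each replicate. The share over all protein-coding genes was 14.9% in the main list, and 9.61% and 9.84% in the lists of replicates 1 and 2. Nelf-E (196, shared with RpL14) and TH1 (190) encode subunits of the pausing factor NELF, Spt6 (83.7) and dre4 (63.1) histone chaperones, lilli (75.7) a subunit of the super elongation complex, and CycT (12.7) the cyclin of P-TEFb. SAGA, a coactivator complex that acetylates histones, had 7 of 13 genes, with Gcn5 (142) and wda (119) the strongest, and e(y)2 (72.1), Sgf29 (61.8), Spt7 (57.6), Ada3 (57.3) and Spt3 (56.0) lower. SAGA had 8 genes in the conservative list, and 2 and 3 in the lists of replicates 1 and 2. Integrator, which cleaves nascent RNA, had 5 of 14, IntS11 (189), IntS6 (150), IntS9 (122), IntS4 (53.6) and defl (52.3), and 3 in each other list. Here dre4, lilli, CycT, Ada3, Spt3, Spt7, Sgf29, IntS4 and defl were in neither replicate's own list. The CycT summit lay 360 bp downstream. The summits at lilli, Sgf29, e(y)2 and IntS6 lay nearer to the start of another gene. Of the list genes with a diverging start 22 of 48 were bound (45.8%), beside 25.0% of protein-coding genes so arranged. Of those without, 5 of 22 were bound (22.7%), beside 8.39%. Differences of the lists from the members and from all protein-coding genes were not tested, since the lists were chosen with results of these data known.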

How the data were processed

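ChIP-seq of Wdn-eGFP was measured in 2 biological replicates of whole embryos. The deposited files are peak lists on dm6, per the file headers, ranked and thresholded by IDR by the authors. The deposited signal value of each peak is that of the authors' peak caller, and the deposited ranked lists give the −log10 of the global IDR. The other deposited columns used were peak position and summit offset. Aligner, peak caller and their versions are not given in the sources used here. In each ranked list 8 columns of per-sample values carry no sample label and were not used.

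Summits were placed on transcript starts of the Ensembl release 115 annotation with Python 3.11.15, numpy 2.4.6 and scipy 1.17.1, within 500 bp, and the placement was tested on simulated peaks. Sequence came from the RefSeq genome of the same assembly, and none from arm 2R was printed. Members and lists were chosen with earlier results of these data known. The diverging-neighbour split, its distance of 1000 bp and assignment to the nearest protein-coding start were chosen after seeing the data. Counts are descriptions beside all protein-coding genes, with no test. Exact Clopper-Pearson 95% intervals treat genes as independent, although neighbours share peaks. Of 70 list genes, 63 were matched by symbol and 7 by hand to the symbol of the annotation.

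Genes named were all bound members, members bound in another list only, the 6 other members with the lowest IDR, and all bound list genes. The other genes were named after their values were seen. Counts include 1 bound member whose values are not reported here. Alternatives were the conservative list, each replicate alone, an IDR of 0.001, passing candidates added, windows of 200 and 1000 bp, 100 bp around summits, protein-coding partners and nearest starts. Read depth per sample is unknown.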

Additional observations from a re-analysis of the deposited data

How the results depend on the processing

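Read depth is unknown, 1 group of 2 replicates allows no test, and with 7 to 25 genes a complex a change of 1 gene moves a share far. No paired analysis was possible because there is only 1 group.

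Assignment to the nearest start reversed the order of the shares. Members minus all protein-coding genes was 5.31 percentage points, -2.15 with the nearest start and -1.01 with the nearest protein-coding start, with 7 and 8 members bound, 3 and 4 of them Mediator, 1 and 1 polymerase III, 1 and 1 TAF, and 0 and 0 TFII factors. The difference was 4.64 in the conservative list, 7.88 to 8.11 without a replicate, 6.02 at an IDR of at most 0.001, 6.23 with passing candidates added, 4.40 within 200 bp and 3.83 within 1000 bp.

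Polymerase III fell to 1 gene in the conservative list, without either replicate (1 to 1), at IDR 0.001 and within 200 bp. TFII factors fell to 1 in the same settings, with 1 to 2 without a replicate, and TAFs to 1 at IDR 0.001. Polymerase I had 0 to 1 without a replicate. The 27 bound list genes became 15 to 16 without a replicate and 13 at IDR 0.001.

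The median signal of 118 was 137 in the conservative list, 56.6 to 72.2 in the lists of single replicates, which have scales of their own, 141 at IDR 0.001, 137 within 200 bp, 101 within 1000 bp and 139.8 with the nearest start. The median position of -158.5 bp was -127.5 in the conservative list, -148 to -119 without a replicate, -99 within 200 bp and -77 with the nearest start. The upstream share was 92.9% to 100% and the A and T share 70.7% to 71.4% without a replicate. Within 200 bp, 9 bound members had another start near the summit. With protein-coding partners only, 1 bound member (MED4) had no diverging start. Beyond what the settings' construction shows, the cause was not tested.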
